A study of Rattus norvegicus with 16 samples.

Results

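The mitochondrial respiratory chain genes described here are the nuclear genes for subunits of the 5 oxidative phosphorylation complexes, followed in 4 brain regions of rats given sevoflurane, propofol or a control treatment. Members were taken by symbol alone, under a rule set with earlier results of these data known. It covers names that begin with Nduf plus a subunit letter (a, b, c, s or v) and a digit, and Sdha to Sdhd. It also covers names that begin with Uqcr, Cox4 to Cox8 or Atp5. The rule found 73 of the 15037 named genes on the array, each with 1 probe set: 33 of complex I, 4 of complex II, 8 of complex III, 14 of complex IV and 14 of ATP synthase. Subunits encoded by mitochondrial DNA were not analysed here. The rule takes in a few genes that are not plain subunits, among them Ndufa4, counted by its name with complex I although its protein is now placed in complex IV, Cox7a2l, which helps to join complexes III and IV, and Atp5if1, the inhibitor of ATP synthase.

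The chain passes electrons from NADH through complex I, and from succinate through complex II, to ubiquinone, then through complex III and cytochrome c to complex IV, where oxygen is reduced. Complexes I, III and IV pump protons out of the matrix as they do so, and ATP synthase lets protons back in to make ATP. In the brain this supplies most of the ATP that neurons spend on ion pumping and synaptic transmission, and neurons that fire fast are known for a high content of mitochondria.

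Male Wistar rats aged 8 to 10 weeks breathed 40% oxygen at 6 L/min and received 1 of 4 treatments for 60 minutes: sevoflurane at 2.4%, an inhaled anesthetic, O2 alone, propofol given intravenously at 36 mg/kg/hr after a bolus of 10 mg/kg, or Intralipos, a lipid emulsion of 10% lipid given on the same schedule. O2 is the control of sevoflurane, and Intralipos that of propofol. Regions were the habenula in its lateral (LHb) and medial (MHb) divisions and, in the hindbrain, the nucleus of the solitary tract (Sol) and the medial vestibular nucleus (MVe). They were cut from frozen Nissl-stained sections by laser microdissection, and each of the 16 combinations of region and treatment was measured on 1 array. The question behind the design was which genes in these regions respond to each anesthetic.

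No combination of region and treatment had a second array, so the 4 regions stand in for replicates of a treatment and the 4 treatments for replicates of a region. The labels do not say whether regions came from the same rats or how many rats an array holds, and the p-values, which measure the spread between these arrays, may be too small if rats were shared. The arrays fall into 2 sets that appear to have been normalized separately. The mean over all probe sets was 7.20 to 7.21 on the sevoflurane and O2 arrays and 6.97 to 6.99 on the propofol and Intralipos arrays. Differences are therefore taken within a treatment or set, or after fitting treatment as a term. Statements on whether the arrays of 2 regions overlap, and ranges of summed marker levels, pool both sets as deposited. There the offset between sets can add overlap. Region labels were checked against markers. All 6 measured MHb markers were lower in LHb than in MHb, and of 3 LHb markers Gap43 and Htr2c were higher in LHb while Gpr151 was lower there (-2.26 on the log2 scale). All 4 Sol markers were higher in Sol than in MVe, and 5 of 6 MVe markers were lower, with Hoxa2 the exception at 1.84 higher in Sol. The 4 measured hindbrain markers, all Hox genes, set Sol apart far more than MVe. Their summed log2 level was 12.4 to 13.7 in Sol and 7.57 to 7.88 in MVe, against 6.91 to 7.11 in LHb and 6.77 to 7.30 in MHb. In bulk tissue such as this, fewer cells of a type and less RNA per cell cannot be told apart.

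Printed here, for each complex, is the promoter of the member with the largest drop in Sol against MVe among those with a RefSeq promoter entry, because the regional contrast described further on is the finding that the members share. Each sequence runs 5′ to 3′ on the gene's strand and follows its RefSeq promoter entry on the GRCr8 build. It covers 250 bases before to 50 bases after the start that the entry uses. For Ndufa6 and Uqcrh this is the start of the annotated gene. The Cox7a2 and Atp5mc1 windows lie wholly inside the annotated genes (chr8:89597051-89611032 and chr10:81520762-81523735). The Sdhb window begins before the annotated gene start, 158547775, but the start its entry uses lies inside the gene. Capitals mark matches, on either strand, to short motifs of 3 factors known to act at promoters of mitochondrial genes: CCGGAAG for ETS factors such as the GA-binding protein, AAGATGG for YY1, and the NRF1 consensus, searched with 1 free base near its centre.
Ndufa6, complex I, chr7:115750268-115750567, minus strand: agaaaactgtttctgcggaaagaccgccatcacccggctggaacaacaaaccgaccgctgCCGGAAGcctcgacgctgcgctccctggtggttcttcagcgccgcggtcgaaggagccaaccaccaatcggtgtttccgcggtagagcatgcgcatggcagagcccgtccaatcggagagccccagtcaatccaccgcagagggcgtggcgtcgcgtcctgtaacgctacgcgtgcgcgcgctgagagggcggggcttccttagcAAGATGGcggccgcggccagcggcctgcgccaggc
Sdhb, complex II, chr5:158547684-158547983, plus strand: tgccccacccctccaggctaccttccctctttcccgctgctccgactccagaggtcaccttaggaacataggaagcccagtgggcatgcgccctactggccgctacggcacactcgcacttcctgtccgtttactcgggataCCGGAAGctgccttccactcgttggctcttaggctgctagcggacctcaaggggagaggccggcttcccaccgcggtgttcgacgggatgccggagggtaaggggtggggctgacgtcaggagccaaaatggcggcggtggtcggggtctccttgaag
Uqcrh, complex III, chr5:134790833-134791132, minus strand: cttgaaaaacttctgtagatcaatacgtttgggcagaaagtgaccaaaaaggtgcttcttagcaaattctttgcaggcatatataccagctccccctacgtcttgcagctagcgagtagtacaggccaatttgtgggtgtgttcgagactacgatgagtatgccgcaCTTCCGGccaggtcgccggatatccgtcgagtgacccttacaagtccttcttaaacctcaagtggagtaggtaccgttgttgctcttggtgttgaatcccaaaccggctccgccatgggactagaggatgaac
Cox7a2, complex IV, chr8:89601100-89601399, minus strand: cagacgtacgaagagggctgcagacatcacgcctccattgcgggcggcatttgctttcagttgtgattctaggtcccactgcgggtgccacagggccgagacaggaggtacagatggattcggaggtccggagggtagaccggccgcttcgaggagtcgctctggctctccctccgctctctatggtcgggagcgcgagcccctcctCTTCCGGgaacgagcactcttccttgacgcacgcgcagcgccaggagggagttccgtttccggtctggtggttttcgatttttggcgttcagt
Atp5mc1, ATP synthase, chr10:81523296-81523595, minus strand: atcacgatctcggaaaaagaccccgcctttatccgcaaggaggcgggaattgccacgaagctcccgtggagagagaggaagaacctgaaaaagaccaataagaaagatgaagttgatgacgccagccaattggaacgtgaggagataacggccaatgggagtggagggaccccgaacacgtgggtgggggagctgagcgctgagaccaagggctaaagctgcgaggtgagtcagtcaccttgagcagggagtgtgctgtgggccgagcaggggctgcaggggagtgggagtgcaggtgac
The Ndufa6 promoter held 1 ETS and 1 YY1 match, the Sdhb, Uqcrh and Cox7a2 promoters 1 ETS match each, on the opposite strand in Uqcrh and Cox7a2, and the Atp5mc1 promoter none of the 3 motifs.

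Promoters of 65 of the 73 members were matched by gene identifier, with 1 entry kept per gene. The ETS motif was found in 20 of the 65 (30.8%), against 9.22% of all 27457 promoters of the same length. YY1 matches were present in 15 of 65 (23.1%), against 7.3% of all promoters, and NRF1 matches in 10 of 65 (15.4%), against 4.71%. TATAAA, the letters of a TATA box, occurred in 6 of 65 (9.23%), against 14.3% of all promoters. No 2 of these matches overlapped in a member's promoter. Median GC content was 56.3% over the members' promoters and 52.3% over all of them. Of the 57 members with a promoter that were lower in Sol than in MVe, 19 held the ETS motif, against 1 of the 8 that did not pass that test; these shares were not tested against each other. A match is a stretch of letters and does not show binding.

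Levels are deposited on a log2 scale, so a difference of 1 is a doubling, and signals of different probe sets cannot be set against each other. Most members were bright: 49 of 73 lay in the brightest 10% of genes, at a mean of 12.1 or more. Only 5 had a mean under the median of all genes, 6.93: Cox4i2, Cox6a2, Cox8b, Cox8c and Ndufa4l2, which are the isoforms known for restricted expression, such as the heart and muscle forms Cox6a2 and Cox8b and the hypoxia-linked forms Cox4i2 and Ndufa4l2.

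Respiratory chain genes were lower in Sol than in MVe, across all 5 complexes. Of the 73 genes, 64 were lower and 0 were higher at an adjusted p under 0.05 (limma, Benjamini-Hochberg over all 15037 genes), where 35.2% of all genes passed, 16% lower and 19.3% higher. The median difference over the members was -0.99 on the log2 scale, 1.98-fold lower in Sol, against -0.02 over all genes. In the brightest 10% of genes, which held 49 of the 73 members, 30.8% were lower and 30.5% higher, and the median difference was -0.01. The part of signal level in the members' calls was not tested. With both array sets pooled as deposited, all 4 Sol arrays lay below all 4 MVe arrays for 54 of the 73 genes (74.0%), against 11.9% of all genes.

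**Figure D1:**
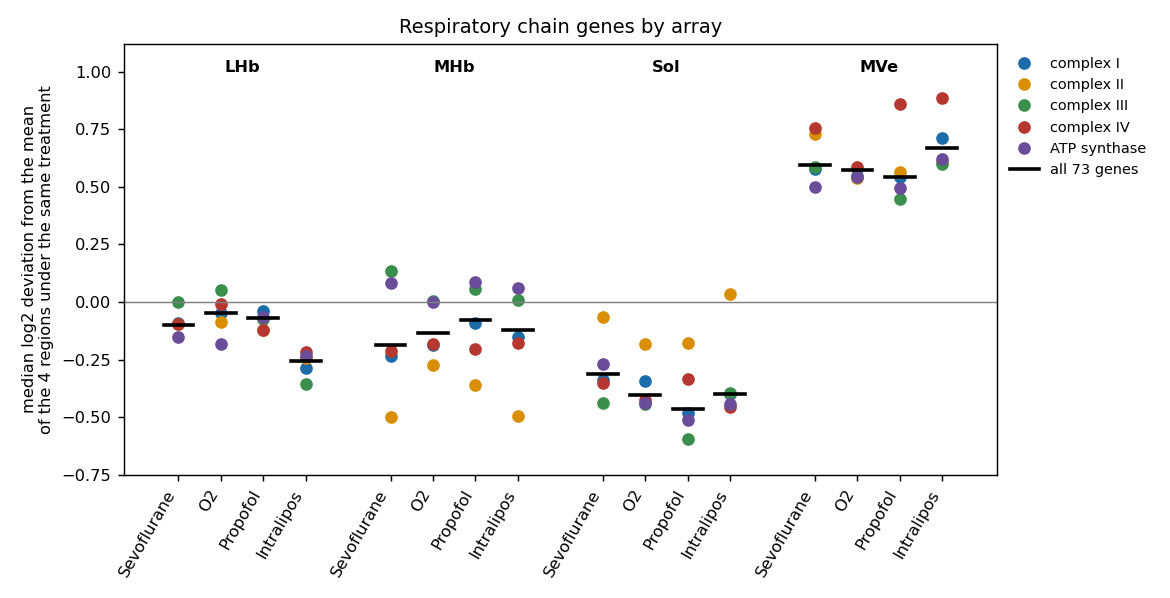
Median log2 deviation of the members from their mean over the 4 regions under the same treatment, for each of the 16 arrays, grouped by region; dots are the 5 complexes and bars the median of all 73 genes. The 4 MVe arrays sit between 0.54 and 0.67 for all members and the 4 Sol arrays between -0.46 and -0.31, with both habenular nuclei in between. For complex II the lowest array under each treatment is that of MHb, between -0.50 and -0.27.

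In each treatment taken alone the same order was seen between these nuclei. Median differences, Sol minus MVe, were -0.92 under sevoflurane, -0.998 under O2, -0.998 under propofol and -1.05 under Intralipos, each from 1 array against 1 array. In all 4 treatments 68 of 73 members were lower in Sol (93.2%), against 22.2% of all genes, and Atp5mc2 alone was higher in all 4. Within the sevoflurane and O2 arrays alone 49 members passed the test as lower in Sol, and within the propofol and Intralipos arrays alone 50 did, with 0 higher in either set. Centring each array on its median moved the median of all genes by -0.15 in this contrast, and the split was then 0 higher and 67 lower among members, and 2223 higher and 3509 lower among all genes, against 2901 higher and 2399 lower as deposited.

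Complex I gave 29 of 33 genes lower in Sol, with a median of -0.98. The widest gap was that of Ndufb9, an accessory subunit of the membrane arm. Ndufb9 read 13.15, 12.91, 12.56 and 12.63 in Sol under sevoflurane, O2, propofol and Intralipos, against 15.29, 15.12, 14.77 and 14.83 in MVe. No Sol array came near any MVe array, and the fitted difference was -2.19 ± 0.19 (moderated SE, adjusted p = 4.35e-08). Ndufa6, the accessory subunit that binds the mitochondrial acyl carrier protein, read 10.69, 11.01, 9.53 and 10.41 in Sol, against 12.71, 13.15, 11.72 and 11.91 in MVe, a difference of -1.96 ± 0.18 (adjusted p = 6.99e-08). Again the groups did not overlap. Ndufb7 (-1.74 ± 0.22) and Ndufb8 (-1.70 ± 0.14), both of the membrane arm, and Ndufa2 (-1.63 ± 0.19), of the matrix arm, completed the complex I genes among the 10 largest differences. The matrix-arm core subunits Ndufs3 and Ndufs7 differed by -1.56 and -1.59, and Ndufv1, which binds NADH, by -1.18, all with an adjusted p under 0.05. These 3 were chosen for their roles after their values were seen.

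Complex II, the only complex here that is also an enzyme of the citric acid cycle, had the smallest median, -0.55, with all 4 genes lower in Sol. Sdhb, the iron-sulfur subunit, read 13.77, 13.83, 13.60 and 13.73 in Sol, against 15.11, 14.98, 14.79 and 14.86 in MVe. Its Sol arrays all lay below its MVe arrays, and the difference was -1.20 ± 0.16 (adjusted p = 1.08e-05). The flavoprotein Sdha differed by -0.54, and the membrane anchors Sdhd and Sdhc by -0.55 and -0.42.

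All 8 genes of complex III were lower in Sol, with a median of -0.89. Uqcrh, the hinge protein that contacts cytochrome c1, read 14.55, 14.50, 14.34 and 14.67 in Sol, against 16.26, 16.24, 16.21 and 16.17 in MVe, with no overlap. The difference was -1.70 ± 0.20 (adjusted p = 1.56e-06). The core proteins Uqcrc1 and Uqcrc2 differed by -1.301 and -0.71, and Uqcr11, a small accessory subunit, had the smallest difference of the complex at -0.51.

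Complex IV had the largest median, -1.12, with 10 of 14 genes lower. Cox7a2, the widely expressed form of subunit VIIa, read 14.64, 14.92, 14.45 and 14.20 in Sol, against 16.39, 16.44, 16.17 and 16.38 in MVe. The groups were well apart, at -1.79 ± 0.15 (adjusted p = 2.78e-08). Cox5b, which binds zinc, differed by -1.79 ± 0.14, and Cox7b by -1.67 ± 0.18. Of the other ubiquitous forms, Cox6a1 fell by 1.39, Cox4i1 by 1.34 and Cox6b1 by 1.13 in Sol, and Ndufa4, named with complex I, by 1.03. Cox8a was the exception among them, with 15.69, 15.68, 15.09 and 15.29 in Sol, against 15.996, 15.70, 15.26 and 15.33 in MVe. These groups overlap when the array sets are pooled, and differ by -0.13 ± 0.14 (adjusted p = 0.501, limma). Within treatments, Sol minus MVe for Cox8a was -0.31 under sevoflurane, -0.02 under O2, -0.17 under propofol and -0.04 under Intralipos.

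The restricted isoforms did not behave as one group. Cox6a2, the heart and skeletal muscle form of subunit VIa, which in mouse brain is also known from parvalbumin interneurons, read 3.98, 3.74, 3.64 and 3.69 in Sol, against 4.94, 4.63, 4.12 and 5.29 in MVe. Every Sol array was below every MVe array, and the difference was -0.99 ± 0.18 (adjusted p = 0.000204, limma). Its signals were well under the median of all genes, 6.93, and toward the lowest value on any array, 2.47. Cox8b, the heart and muscle form of subunit VIII, had 4.38, 4.40, 3.84 and 3.70 in Sol, against 5.61, 5.51, 4.65 and 4.999 in MVe (-1.11 ± 0.18, adjusted p = 6.64e-05, limma). These signals too are under the median of all genes and toward the low end of the range. Its widely expressed and far brighter partner Cox8a showed no difference past the threshold. Cox4i2, Cox8c and Ndufa4l2 did not pass, at -0.07, -0.04 and 0.18, with adjusted p of 0.817, 0.888 and 0.521. On the propofol and Intralipos arrays alone the fitted signs of Cox8c and Ndufa4l2 were the opposite, 0.18 and -0.02.

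**Figure D2:**
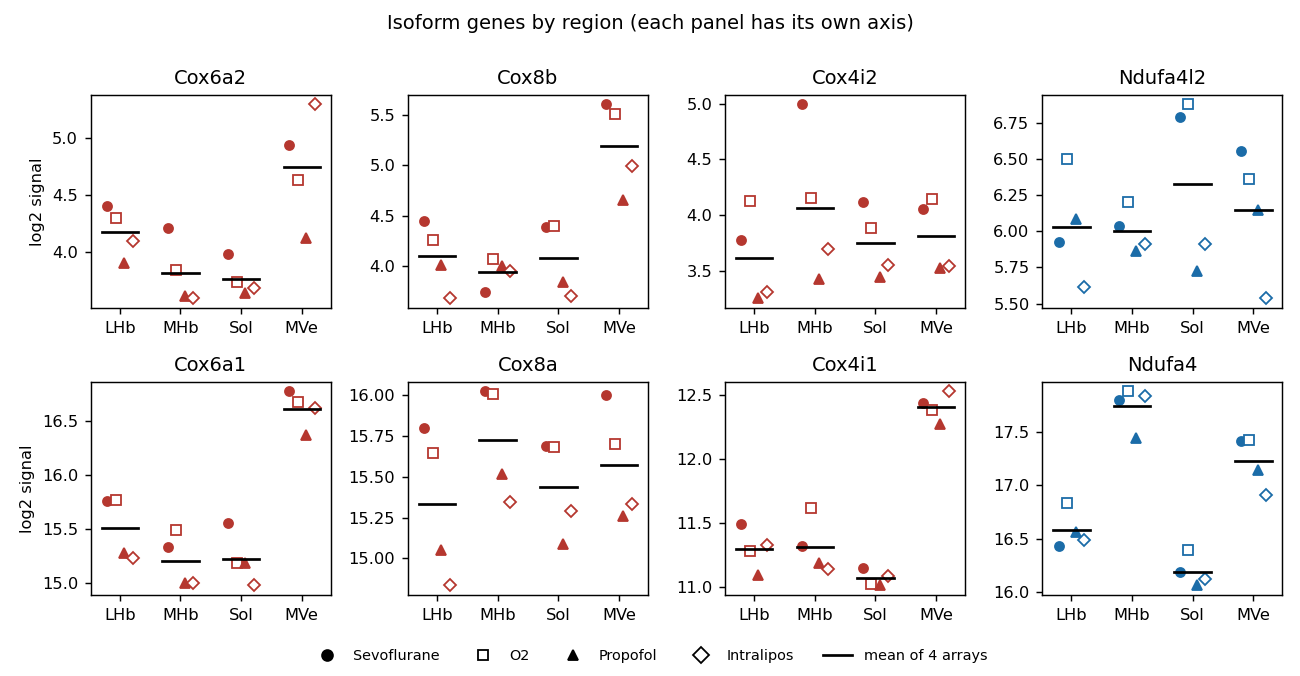
Log2 signal of 4 restricted isoforms (top row) and of the widely expressed gene of the same subunit family (bottom row) on each array, by region; symbols are the 4 treatments, filled for the anesthetics and open for their controls, and bars the mean of 4 arrays. Cox6a2, Cox8b, Cox6a1 and Cox4i1 stand highest in MVe, Ndufa4 stands highest in MHb, and each panel has its own axis.

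ATP synthase gave 13 of 14 genes lower in Sol, with a median of -1.01. The split inside it lay between 2 genes of subunit c, which encode the same mature ring protein with different import sequences. Atp5mc1 read 10.73, 10.61, 10.36 and 9.93 in Sol, against 12.75, 12.45, 11.72 and 12.01 in MVe, a difference of -1.82 ± 0.15 (adjusted p = 2.11e-08). Atp5mc2 read 14.22, 14.06, 13.64 and 13.86 in Sol, against 13.95, 14.04, 13.24 and 13.39 in MVe, a difference of 0.29 ± 0.16 that did not pass (adjusted p = 0.188). With the array sets pooled, the first gene separated the nuclei completely and the second overlapped between them. Within each treatment Atp5mc2 was higher in Sol. The catalytic subunits Atp5f1a and Atp5f1b fell by 0.67 and 0.90 in Sol, and the inhibitor Atp5if1 by 0.66.

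The 9 members that did not pass were Cox8a, Cox4i2, Cox8c, Ndufa4l2 and Atp5mc2, given above, and 4 that were named after their values were seen: Ndufb2 at -0.40, Cox7a2l at -0.39, Ndufb11 at -0.31 and Ndufv3 at -0.15. Many of these genes have near-identical processed pseudogenes in mammals, and whether a probe set also reads a copy was not checked.

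**Figure D3:**
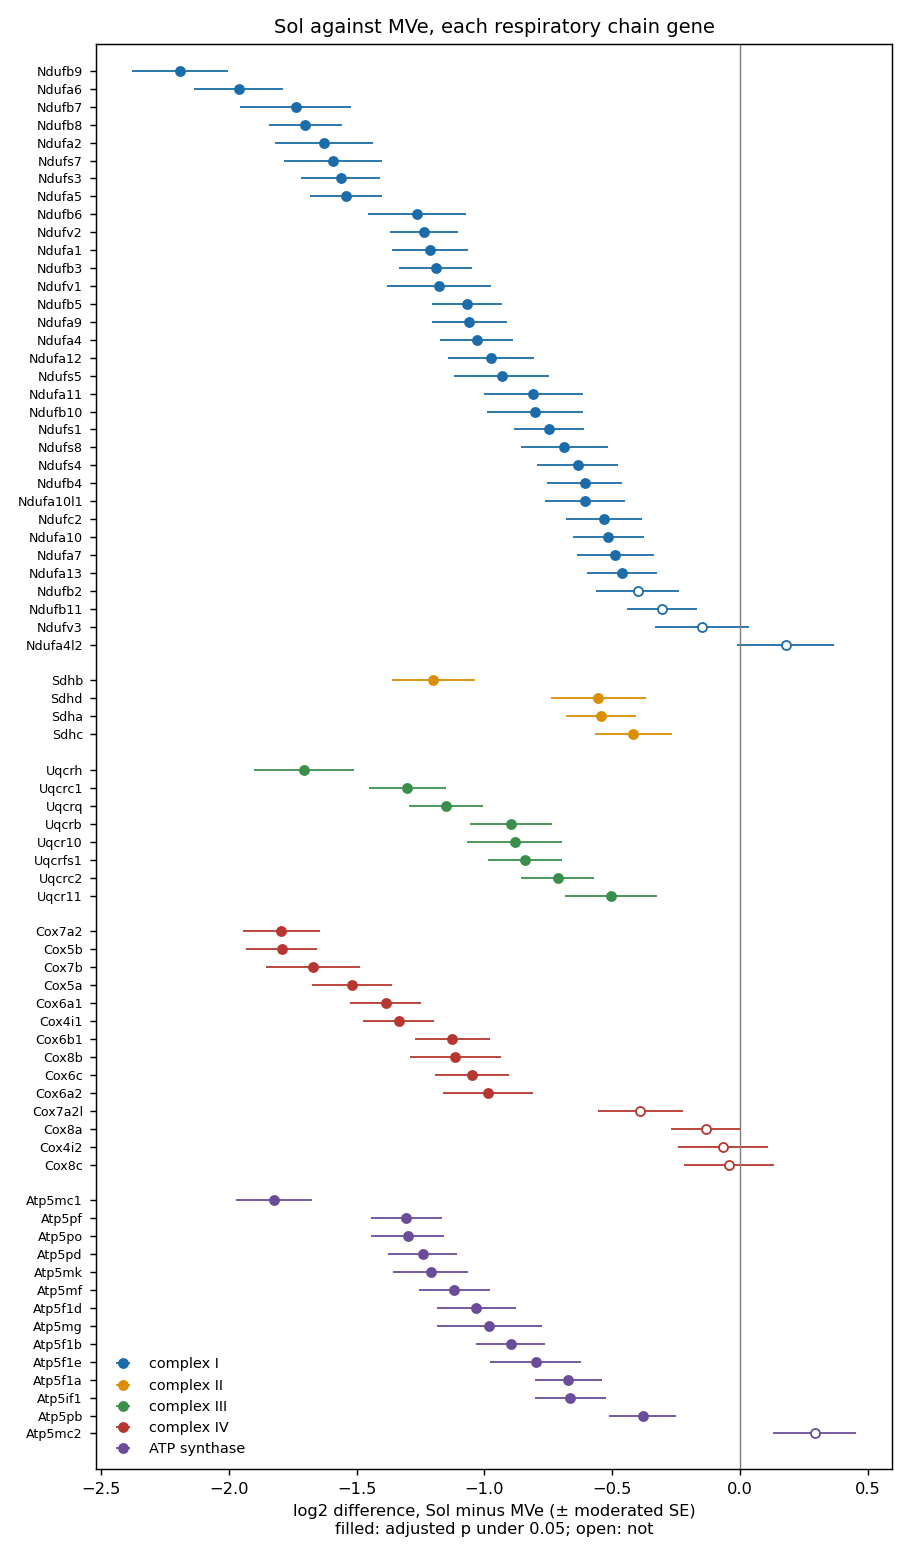
Log2 difference, Sol minus MVe, of each of the 73 genes with its moderated SE, grouped and coloured by complex; filled dots have an adjusted p under 0.05 and open dots do not. The 64 filled dots lie left of 0, down to -2.19 for Ndufb9, and only Atp5mc2 and Ndufa4l2 lie right of it.

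The larger differences from the habenula were those of MVe. It had the highest mean of the 4 regions for 60 of 73 members (82.2%), against 28.8% of all genes, and Sol the lowest for 46 (63.0%), against 27.1%. The other 13 were highest in MHb for 9 genes, in LHb for Cox8c and Ndufa13, and in Sol for Atp5mc2 and Ndufa4l2. MVe against LHb gave 55 members higher and 0 lower, where 26.7% of all genes passed, 13% higher and 13.7% lower, with a median difference of 0.74. Against MHb, 51 members were higher in MVe and Ndufa4 and Uqcr11 were lower (-0.52 and -0.58), where 40.9% of all genes passed, 19.9% higher and 21% lower, again with a median of 0.74.

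Sol differed less from the habenula. Against LHb, 25 members were lower in Sol and 0 higher, where 25.3% of all genes passed, 11% lower and 14.3% higher, with a median of -0.29. Against MHb, 30 were lower and 6 higher, where 38.7% of all genes passed, 18.9% lower and 19.8% higher, with a median of -0.31. Centring each array on its median gave 44 lower and 3 higher members, and moved the median of all genes by -0.20. The 6 higher genes were Sdhc, Ndufa12, Ndufs3, Ndufa10l1, Ndufb11 and Sdha, at 0.99, 0.69, 0.65, 0.43, 0.42 and 0.37. Complex II stood apart from the other complexes. Its median was 0.04 against LHb, with 0 of 4 genes past the threshold, and 0.25 against MHb, with 2 higher and 0 lower. These 4 contrasts were added after the data were seen, and each pair shares arrays with the others. Summed log2 levels of oligodendrocyte markers were 17.5 to 18.1 in Sol, 19.7 to 20.1 in LHb and 18.0 to 18.8 in MHb. Those of astrocyte markers were 20.2 to 20.4 in Sol, 19.0 to 19.5 in LHb and 17.3 to 17.8 in MHb, though Aldh1l1 stood at -1.51 in Sol minus LHb. The part of cell composition in the members' differences from the habenula was not tested.

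Genes around the chain followed it only in part. Cytochrome c1 (Cyc1, -1.87), cytochrome c (Cycs, -1.67), the acyl carrier protein Ndufab1 (-1.63) and Dmac2l (-0.80), chain genes whose symbols fall outside the rule, were all lower in Sol. Assembly factors of the complexes were lower for 20 of 35 and higher for 3, led by Atpaf1 (-2.75), which assembles the F1 part of ATP synthase, Ndufaf7 (-1.38) and Ndufaf5 (-1.37), which modify complex I subunits, and Cox16, which was 1.303 higher in Sol. The citric acid cycle had 8 of 12 genes lower and 1 higher, with Idh3b at -1.74 and Sucla2 at -1.73, while Suclg2, which makes the GTP-specific form of the same ligase as Sucla2, was 1.08 higher. The lists had medians of -0.52 for assembly factors and -0.82 for the citric acid cycle.

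In glycolysis 5 of 16 genes were lower in Sol and 1 was higher, with a median of -0.33. Ldha, the lactate dehydrogenase subunit that favours lactate formation, was 2.30 ± 0.15 higher in Sol, and Ldhb, its partner that favours pyruvate formation, was 1.14 lower in Sol (-1.14 ± 0.14). Tpi1 (-1.31) and Pgam1 (-1.03) were lower. Of 9 carriers and uncoupling proteins, 6 were lower, among them the outer-membrane channel Vdac1 (-0.87), the ADP/ATP carrier Slc25a5 (-0.86) and the phosphate carrier Slc25a3 (-0.85), and 2 were higher, Slc25a14 (0.65, named after its value was seen) and Ucp2, the uncoupling protein of microglia and other immune cells among others, at 3.95.

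Regulators of mitochondrial biogenesis were lower for 5 of 13 and higher for 2. The orphan receptor Esrrg (-5.13), its coactivator Ppargc1a (-2.07), Esrra (-1.55) and Tfb2m (-1.05), a factor of mitochondrial transcription, had the largest differences, and Gabpa and Yy1, named after their values were seen, since their motifs were searched in the promoters above, were higher in Sol, by 0.72 and 0.70. Nrf1, the third of those factors, differed by 0.15 and did not pass (adjusted p = 0.543, limma). Esrrg is also on the list of MVe markers, as is Pvalb among the fast-spiking genes below.

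**Figure D4:**
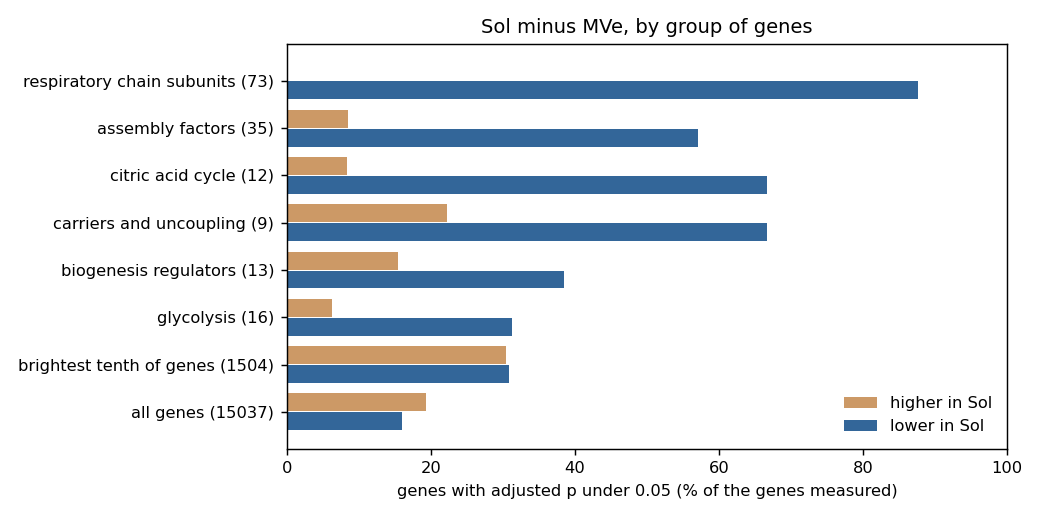
Share of the measured genes of each group that were higher or lower in Sol than in MVe at an adjusted p under 0.05, with the number of genes in brackets. Of the subunit genes 87.7% were lower and 0 were higher, while in the brightest 10% of genes both directions stand near 30.8%.

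Cell type markers also differed between Sol and MVe. Genes of fast-spiking neurons were lower in Sol for 8 of 8, with Pvalb at -10.31, and their summed log2 level was 10.6 to 11.2 on Sol arrays, against 17.5 to 17.9 on MVe arrays. Oligodendrocyte markers were lower in Sol for 9 of 9 (17.5 to 18.1 in Sol, against 19.6 to 20.2 in MVe), and choroid plexus markers for 9 of 9 (8.86 to 15.1 in Sol, against 17.0 to 18.3 in MVe). Neuron markers were lower for 6 and higher for 1 of 11, endothelial and pericyte markers lower for 7 of 8, microglia markers higher for 7 of 7, and astrocyte markers higher for 6 and lower for 2 of 9. Between MVe and LHb, where 55 members were higher in MVe, fast-spiking genes were higher for 8 of 8 (17.5 to 17.9 in MVe, against 12.4 to 12.8 in LHb) and choroid plexus markers were higher for 7 and lower for 1 of 9 (17.0 to 18.3 in MVe, against 9.83 to 10.2 in LHb). In the same contrast neuron markers were higher for 6 and lower for 2 of 11, endothelial and pericyte markers higher for 5 of 8, oligodendrocyte markers lower for 5 and higher for 0 of 9, and microglia markers lower for 6 of 7. The part of cell composition in the subunit genes' differences was not tested.

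Between the 2 habenular nuclei the members went both ways. LHb against MHb gave 7 members higher and 10 lower, where 28.5% of all genes passed, 14.1% higher and 14.4% lower. The median was 0.03 over members and -0.04 over all genes. With each array centred on its median the split was 5 higher and 16 lower (1819 higher and 2920 lower of all genes, against 2119 and 2170 as deposited), and with quantile normalization 10 higher and 7 lower. Complex I had 5 of 33 genes higher and 4 lower in LHb, complex II 2 of 4 higher and 0 lower, and ATP synthase 0 of 14 higher and 3 lower.

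The genes higher in LHb were led by Ndufs3, with 11.07, 11.37, 10.69 and 10.57 in LHb under sevoflurane, O2, propofol and Intralipos, against 10.18, 9.93, 9.41 and 9.52 in MHb. All LHb arrays were above all MHb arrays, by 1.16 ± 0.16 (adjusted p = 1.09e-05). Ndufa12, of the matrix arm, followed at 1.06 ± 0.17 (adjusted p = 7.27e-05), then Ndufb9 (0.70), Sdhc (0.61), Ndufb3 (0.60), Sdhb (0.47) and Ndufa5 (0.43). The last 2 did not pass after median centring.

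On the other side stood Ndufa4, with 16.43, 16.83, 16.57 and 16.49 in LHb, against 17.80, 17.88, 17.44 and 17.84 in MHb. These groups did not overlap either, and the difference was -1.16 ± 0.14 (adjusted p = 4.04e-06). Uqcr11 (-0.72), Atp5mc1 (-0.71), Ndufa1 (-0.66), the ATP synthase stalk subunits Atp5f1e (-0.61) and Atp5f1d (-0.61), Ndufs4 (-0.47), Cox7a2 (-0.46), Ndufa7 (-0.43) and Cox8a (-0.39) were also lower in LHb. Ndufs4, Ndufa7 and Cox8a did not pass after quantile normalization, and Ndufa7 also not with all probe sets tested or with region within array set as a block. Among the isoforms, Cox4i2 at -0.45 and Cox6a2 at 0.36 had adjusted p of 0.0666 and 0.147 and did not pass, though Cox4i2 did after median centring (-0.55, adjusted p = 0.0233). Cox6a1, at 0.31, did not pass either (adjusted p = 0.119), but did after quantile normalization and with trend and robust variance estimates (adjusted p = 0.0286 and 0.0278). Oligodendrocyte markers (9 of 9 higher) and astrocyte markers (8 of 9 higher, 1 lower) were higher in LHb, as were 7 of 8 fast-spiking genes with 1 lower. Endothelial and pericyte markers were higher for 7 of 8, with Kcnj8 not past the threshold. Choroid plexus markers were lower for 5 of 9, and so were all measured ependyma markers, Foxj1 (-1.11), Rsph1 (-0.94) and Tmem212 (-4.00). The part of these cell types in the members' differences was not tested.

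The 2 habenular nuclei together against the 2 hindbrain nuclei gave 6 members higher and 30 lower, where 38.1% of all genes passed, 18.3% higher and 19.8% lower. The median over members was -0.21, against -0.01 over all genes, and medians by complex were -0.55 for complex II, -0.33 for complex IV, -0.25 for complex I, -0.06 for complex III and -0.05 for ATP synthase. Sdhc, a membrane anchor of complex II, read 11.17, 10.69, 11.19 and 10.88 in LHb and 10.44, 10.35, 10.34 and 10.36 in MHb, against 11.59, 11.30, 11.04 and 11.53 in Sol and 12.001, 11.76, 11.62 and 11.75 in MVe. Within each treatment both habenular arrays were below both hindbrain arrays except under propofol, where LHb was above Sol, and the difference was -0.90 ± 0.11 (adjusted p = 1.55e-06).

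Ndufs3 (-0.85), Uqcrc1 (-0.66), Ndufa12 (-0.65), Ndufb8 (-0.65), Ndufa10l1 (-0.64), Cox8b (-0.62, at signals under the median of all genes), Sdha (-0.62), Ndufv1 (-0.61) and Ndufb9 (-0.60) were the next lower in habenula. The higher ones were Uqcr11 (0.47), Ndufa4 (0.45), Ndufs4 (0.39), Ndufb4 (0.39), Uqcrc2 (0.36) and Ndufa13 (0.25, adjusted p = 0.0476, which did not pass after quantile normalization, with all probe sets tested or with the block). The hindbrain mean joins nuclei that differ from each other, as the core protein Uqcrc1 shows: MVe minus LHb was 1.28 (adjusted p under 0.05), while Sol minus LHb was -0.02 (adjusted p = 0.945, limma). Of the isoforms and their partners, Cox6a1 (-0.56), Cox4i1 (-0.43) and Cox6b1 (-0.33, which did not pass after median centring) were also lower in habenula, and Cox6a2 at -0.26 did not pass. All 12 citric acid cycle genes had a fitted difference below 0 in this contrast and 9 passed as lower.

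Sevoflurane against O2 gave no respiratory chain gene past the threshold. Of the 73 genes 0 were higher and 0 lower, as were 0% of all 15037 genes, by limma's test over all genes. At an unadjusted p under 0.05 there were 2 higher and 1 lower member, against 420 higher and 331 lower of all 15037 genes. The median difference was 0.01 over members and 0.01 over all genes. Of the 73 members 39 were above 0, where 52.8% of all genes were. Medians by complex were 0.004 for complex I, 0.14 for complex II, 0.06 for complex III, 0.03 for complex IV and -0.02 for ATP synthase. Moderated SEs of the members ran between 0.13 and 0.22, which sets the size of difference these arrays could show.

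Ndufs7, which carries the iron-sulfur cluster next to ubiquinone in complex I, had the smallest p. Ndufs7 read 9.03, 9.22, 8.50 and 10.27 in LHb, MHb, Sol and MVe under sevoflurane, against 8.67, 8.96, 8.12 and 9.20 under O2. It was higher under sevoflurane in 4 of 4 regions, most in MVe, by 0.51 ± 0.19 (adjusted p = 0.975), and by 0.33 without MVe. Uqcrc1 (0.33), Ndufa11 (0.37), Sdhc (0.27) and Ndufa7 (0.25) had the next smallest p on that side. Ndufa6 read 11.39, 10.97, 10.69 and 12.71 under sevoflurane, against 11.86, 11.53, 11.01 and 13.15 under O2, lower in 4 of 4 regions, by -0.45 ± 0.18 (adjusted p = 0.975). Ndufs5 (-0.27), Ndufs3 (-0.22), Ndufb4 (-0.22) and Atp5mk (-0.19) did not pass either. The isoforms and their partners lay between -0.17 and 0.26.

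Counted by sign, 13 of 73 members (17.8%) were higher under sevoflurane in 4 of 4 regions, against 7.18% of all genes, and 6 (8.22%) were lower in 4 of 4, against 6.47%. The 13 were Atp5mc1, Atp5pb, Cox6a2, Cox8a, Ndufa13, Ndufa7, Ndufb7, Ndufb9, Ndufs7, Sdhc, Uqcrc1, Uqcrc2 and Uqcrfs1. Taken region by region, with 1 array against 1 array, LHb had a median over members of -0.02, MHb of 0.01, Sol of 0.09 and MVe of 0.02. In Sol 49 of 73 members were above 0, where 49.5% of all genes were. Beside it in Sol, choroid plexus markers had a median of -0.81 (0 of 9 above 0), hindbrain markers of -0.38 (0 of 4), blood cell markers of -0.59 (0 of 3) and ependyma markers of -0.42 (0 of 3). Oligodendrocyte markers had medians of -0.40 in LHb and -0.63 in MHb (0 of 9 above 0 each), and neuron markers of 0.28 in MVe (10 of 11). Their part in the members' values was not tested.

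Propofol against Intralipos likewise gave 0 members past the threshold, where 0% of all genes were higher and 0.02% were lower (limma). At an unadjusted p under 0.05, 0 members were higher and 4 were lower, against 578 higher and 462 lower of all 15037 genes. More members lay below 0 than above it, 54 of 73, where 47.7% of all genes lay below 0. The median was -0.08 against 0.01 over all genes. By complex it was -0.08 for complex I, -0.01 for complex II, -0.21 for complex III, -0.05 for complex IV and -0.11 for ATP synthase. Leaving out 1 region at a time put the complex III median between -0.25 and -0.04. Uqcr11, the small complex III subunit, read 12.88, 13.57, 12.44 and 12.98 in LHb, MHb, Sol and MVe under propofol, against 12.97, 13.87, 13.38 and 13.66 under Intralipos. It was lower in 4 of 4 regions, most in Sol, by -0.50 ± 0.18 (adjusted p = 0.646).

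Ndufb2 (-0.34), Ndufb4 (-0.32), Uqcrc2 (-0.31) and Cox6a2 (-0.35) had the next smallest p on that side, with adjusted p between 0.716 and 0.744. The Cox6a2 value rests on MVe, where the pair differed by -1.17, and without that region it was -0.07. Ndufs7 was again on the other side, with 7.55, 8.23, 7.59 and 9.26 under propofol, against 7.13, 7.65, 7.29 and 9.13 under Intralipos. Ndufs7 was higher in 4 of 4 regions, by 0.36 ± 0.19 (adjusted p = 0.76), and it was the only member higher in 4 of 4 regions under both anesthetics. Uqcrc1 (0.23), Ndufa4l2 (0.21), Cox8c (0.20) and Ndufs8 (0.15) were above 0 as well and did not pass. By sign, 1 member (1.37%) was higher in 4 of 4 regions, against 8.36% of all genes, and 8 (11%) were lower in 4 of 4, against 6.68%.

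The single-region medians differed between habenula and hindbrain under propofol. They were 0.12 in LHb, with 51 of 73 members above 0, and -0.01 in MHb, with 34 above 0. In Sol the median was -0.20 with 15 above 0, and in MVe it was -0.18 with 13 above 0, while medians over all genes lay between -0.01 and 0.03. Marker lists also differed in Sol and MVe: choroid plexus markers had medians of 1.07 in Sol (7 of 9 above 0) and 0.95 in MVe (9 of 9), neuron markers of 0.27 and 0.28 (9 of 11 each), blood cell markers of -0.47 and -0.79 (0 of 3 each) and astrocyte markers of -0.19 and -0.20 (1 of 9 each). Sol markers and hindbrain markers had medians of 0.87 and 0.95 in Sol, with 4 of 4 above 0 each. In LHb, astrocyte markers (-0.23) had 0 of 9 above 0, endothelial and pericyte markers (-0.15) 0 of 8 and oligodendrocyte markers (0.14) 8 of 9, and in MHb oligodendrocyte markers (0.24) also had 8 of 9. Their part in the members' shift was not tested.

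**Figure D5:**
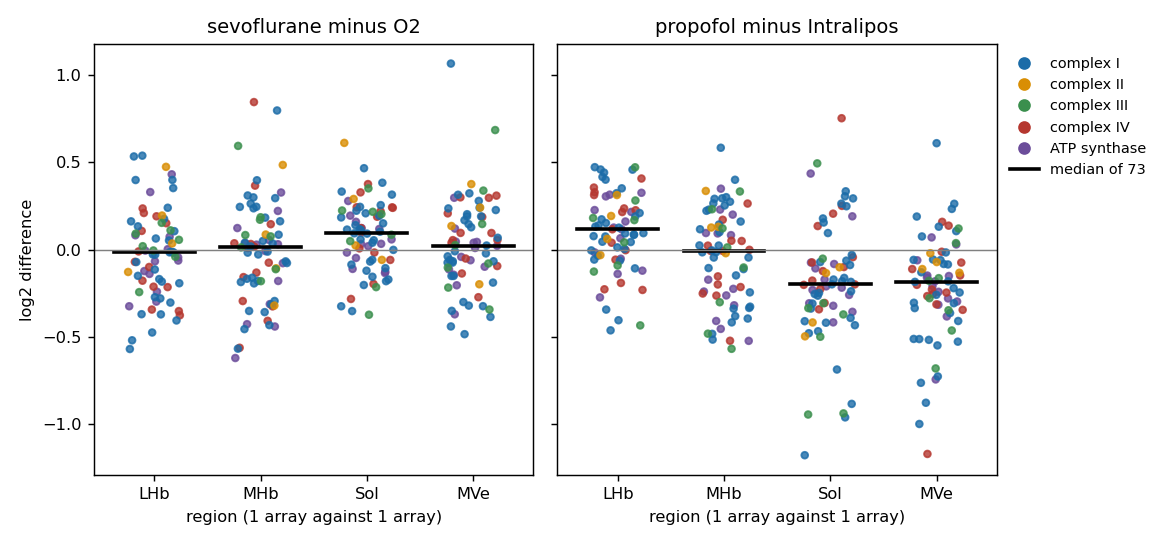
Log2 difference of each of the 73 genes within each region, sevoflurane minus O2 (left) and propofol minus Intralipos (right), 1 array against 1 array; dots are coloured by complex and bars are medians. Sevoflurane medians stay between -0.02 and 0.09, and propofol medians run to -0.20 in Sol and -0.18 in MVe, with LHb at 0.12 and MHb at -0.01.

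The difference between regions was tested directly. The propofol effect in habenula minus that in hindbrain had 0 members past the threshold (0% of all genes, limma). At an unadjusted p under 0.05 there were 5 members, all above 0, against 417 higher and 399 lower of all 15037 genes. The median was 0.25 against 0.01 over all genes. Of 73 members 59 were above 0, where 51.3% of all genes were. Ndufb7 had the largest value, 1.08 ± 0.36 (adjusted p = 0.849): it read 8.29 under propofol, against 9.47 under Intralipos, in Sol and 10.72, against 11.23, in MVe, but 10.17, against 9.71, in LHb and 9.77, against 9.75, in MHb. Its Sol pair was the widest of the 4, and without the propofol array of Sol the value was 0.62. Ndufb6 (0.97 ± 0.31, adjusted p = 0.849), Uqcr10 (0.78), Uqcrb (0.63) and Uqcr11 (0.62) were the others with an unadjusted p under 0.05, and Uqcrq (-0.36), Ndufv3 (-0.30), Ndufs1 (-0.29), Ndufa4 (-0.24) and Cox7a2 (-0.23) had the smallest p on the other side.

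The sevoflurane effect in habenula minus that in hindbrain also had 0 members past the threshold (0% of all genes, limma). At an unadjusted p under 0.05 there were 0 members, against 392 higher and 411 lower of all 15037 genes. The median was -0.11 against -0.02 over all genes. Ndufa11 (0.59), Ndufv3 (0.48), Ndufs3 (0.39), Uqcr11 (0.33) and Uqcrb (0.31) had the smallest p above 0, and Cox7a2l (-0.61), Ndufa12 (-0.54), Ndufs7 (-0.42), Atp5mk (-0.38) and Uqcrc1 (-0.38) the smallest p below it. All had an adjusted p of 0.933 or more.

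The anesthetics were compared through their effects, each against its own control. Sevoflurane effect minus propofol effect gave 0 members past the threshold, where 0.0133% of all genes were higher and 0% lower (limma). At an unadjusted p under 0.05, 3 members were higher and 0 lower, against 403 higher and 351 lower of all 15037 genes. The 3 were Cox6a2 (0.60 ± 0.25, adjusted p = 0.946), Ndufa7 (0.48 ± 0.21, adjusted p = 0.952) and Uqcrc2 (0.43 ± 0.20, adjusted p = 0.975). Ndufb7 (0.52) and Sdhc (0.36) had the next smallest p. Cox6a2 was 0.31 without MVe, and Ndufb7 was 0.19 without Sol. The median was 0.08 against -0.0026 over all genes, and 54 of 73 members were above 0, where 49.6% of all genes were. Complex III had all 8 genes above 0 with a median of 0.20, and complex II all 4 with a median of 0.13. Medians were 0.06 for complex I, 0.05 for complex IV and 0.08 for ATP synthase. Ndufa4l2 (-0.37), Cox8c (-0.21), Atp5f1d (-0.19), Ndufa6 (-0.16) and Ndufa4 (-0.14) had the smallest p on the other side, and none passed.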

How the data were processed

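Laser-microdissected rat brain tissue was measured on 16 Affymetrix arrays from 100 ng of total RNA each, 1 array for each region and treatment. The authors' deposited table gives log2 values for 24834 probe sets. The log2 scale is read from its range, 2.47 to 19.93. The submitters' processing notes name Affymetrix Expression Console 1.3.0. How it summarized and normalized the probes was not given in the sources used here, nor was a build. Control probe sets (94) and 9691 without a symbol were left out. Of the 15049 with 1 symbol in the platform annotation, each gene kept the probe set with the highest mean signal, for 15037 genes. No member had more than 1 probe set. Precision is limited by the number of arrays.

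Values were fitted with limma 3.58.1 (R 4.3.3) with treatment and region as terms (9 residual degrees of freedom, 6 where treatment effects were fitted within habenula and hindbrain), two-sided, with Benjamini-Hochberg adjustment over all genes and a threshold of 0.05. The fit was also run on simulated arrays with known differences and independent errors. That run cannot speak to shared rats or to regions standing in for replicates. Medians by complex and single-region differences carry no test. Marker lists were summed on the linear scale and given as log2.

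Named members were, per contrast, the 10 largest differences past the threshold in each direction, or the 5 smallest p where fewer than 5 passed, plus restricted isoforms and their partners, and up to 4 genes past the threshold per pathway list. The members and lists were chosen with earlier results of these data known. Alternatives were array centring, quantile normalization, other probe rules, a filter on dim genes, other variance estimates, a block, and leaving out each array or region. Promoters came from RefSeq (GRCr8).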

Additional observations from a re-analysis of the deposited data

Results flagged for a closer look

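In groups of 4 paired differences, 8 of the 121 examined (6.61%) had a value far from the other 3 by Dixon's test, where chance gives about 1 in 20. Under sevoflurane against O2, the complex I median in Sol was 0.09, against -0.03 to -0.01 in the other regions, and Ndufs7 in MVe was 1.06, against 0.26 to 0.38. Under propofol against Intralipos, the ATP synthase median in LHb was 0.12, against -0.21 to -0.20 in the other regions. In Sol minus MVe, Ndufb8 was -1.38 under sevoflurane, against -1.82 to -1.80 under the other treatments. In habenula minus hindbrain, Sdhc was -0.56 under propofol, against -1.02 to -0.99 elsewhere, Cox6a2 was -0.65 under Intralipos, against -0.15 to -0.11, Cox6a1 was -0.30 under O2, against -0.68 to -0.62, and Cox7a2 was -0.11 under propofol, against 0.12 to 0.15. Each value comes from single arrays.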

How the results depend on the processing

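Counts of members past the threshold stayed within 1.5 times their value under every alternative run: 16 to 23 for LHb minus MHb (17 as reported), 49 to 67 for Sol minus MVe (64), 31 to 41 for habenula minus hindbrain (36), 54 to 57 for MVe minus LHb (55), 51 to 54 for MVe minus MHb (53), 25 to 33 for Sol minus LHb (25) and 33 to 47 for Sol minus MHb (36). They were 0 throughout for the 5 anesthetic comparisons, and the fit with no region term and no replicate block, run for sevoflurane minus O2 and propofol minus Intralipos, gave 0 members in both. Leaving out arrays in turn gave 12 to 18, 58 to 65, 33 to 36, 50 to 56, 50 to 54, 17 to 27 and 26 to 37 for the region contrasts in that order. Centring each array on its median moved the median of all genes by -0.15 in Sol minus MVe by -0.20 in Sol minus MHb and by -0.10 in Sol minus LHb and LHb minus MHb. Medians of members then became -1.14 in Sol minus MVe (complex I -1.13, II -0.70, III -1.04, IV -1.27, ATP synthase -1.16), -0.074 in LHb minus MHb (IV -0.0105, ATP synthase -0.25), -0.13 in habenula minus hindbrain (ATP synthase 0.031) and -0.046 in sevoflurane minus O2 (ATP synthase -0.072). A filter on dim genes, which drops 5 members, gave -1.36 for complex IV in Sol minus MVe. Values that turned sign were small and had not passed: in LHb minus MHb, Cox8c (-0.074 centred, -0.0375 quantile), Ndufa4l2 (-0.073, -0.078), Cox4i1 (0.017 quantile) and Cox6b1 (-0.054 centred), and in Sol minus MVe on the propofol and Intralipos arrays alone, Ndufa4l2 (-0.0201) and Cox8c (0.18). Leaving out 1 array or region also turned the sign of Cox8c in propofol minus Intralipos (-0.0083 to 0.33), of Atp5f1d (-0.32 to 0.065) and Ndufa6 (-0.40 to 0.073) in sevoflurane effect minus propofol effect, of Ndufv3 (-0.67 to 0.078) and Cox7a2 (-0.48 to 0.031) in the propofol effect between region classes, of Cox8b (-0.026 to 0.28), Cox8c (-0.11 to 0.087), Ndufa4l2 (-0.072 to 0.16), Cox4i1 (-0.097 to 0.089) and Cox6b1 (-0.059 to 0.14) in LHb minus MHb, of Cox8c (-0.25 to 0.12) in Sol minus MVe, and of Cox4i2 (-0.053 to 0.12) and Cox8a (-0.0023 to 0.063) in habenula minus hindbrain. The causes were not tested. With 1 array per region and treatment, the number of arrays limits what the anesthetic comparisons can show.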
